A study of Rattus norvegicus with 44 samples.

Results

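The insulin-like growth factor (IGF) axis was followed here as 9 genes, out of 10412 genes measured on rat arrays. They were the ligands Igf1 and Igf2, the receptors Igf1r and Igf2r, and the binding proteins Igfbp2, Igfbp3, Igfbp4, Igfbp5 and Igfbp6. The genes were picked by their symbols in the platform annotation as growth factors and binding proteins that the choroid plexus can secrete, with their receptors, and not by a threshold on any value. Earlier results of these data were known when they were chosen. All 9 had at least 1 probe. Igfbp4 and Igfbp5 had 2 probes each, and the brighter one stood for the gene.

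Igf1 and Igf2 are secreted peptides related to insulin that drive growth and survival. Both signal through Igf1r, a tyrosine kinase receptor, while Igf2r (the cation-independent mannose 6-phosphate receptor) takes up Igf2 for breakdown in lysosomes. The binding proteins carry the ligands in body fluids and govern how much of them reaches the receptors. The choroid plexus, the epithelial tissue in the brain ventricles that makes cerebrospinal fluid, is a known source of Igf2 and Igfbp2 in that fluid, and the liver is the main source of circulating Igf1.

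Transcripts were measured on 44 single-colour arrays of male Sprague-Dawley rats (NCTR strain, 3 months old). Each choroid plexus array held RNA pooled from 3 rats and each trunk blood array that of a single rat, with 4 arrays in each group. In choroid plexus the groups were amphetamine (AMPH, neurotoxic doses) at 1 day, environmentally-induced hyperthermia (EIH) at 1 day, AMPH at 3 h, EIH at 3 h, and saline at 3 h. In blood they were AMPH, EIH and saline at 1 day, and AMPH, EIH and saline at 3 h. No other allele or agent was named in the labels, and the amphetamine dose and the temperatures were not given in the sources used here. Choroid plexus of saline rats at 1 day was not analysed here. The AMPH and EIH pools of 1 day therefore had saline of 3 h as their control, and time and exposure cannot be told apart there.

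The 24 arrays of 3 h had median intensities of 139 to 146 and the 20 arrays of 1 day 165 to 171, so values of the 2 times appear to have been scaled separately. The choroid plexus EIH pools of 1 day carry titles that call them controls, whereas their source and treatment labels say EIH, and they were used as EIH. By the labels, 5 rat numbers recur over 7 pools, and 17 blood samples carry a rat number that is also listed for a pool. Some numbers recur across exposures or times, where the same animal would not be expected. AMPH 1 day replicate 2, for example, shares a number with a saline pool of 3 h. Within choroid plexus EIH at 1 day, replicates 2 and 3 share a number, and so do replicates 3 and 4. The main fits treat these pools as independent. Whether the recurring numbers are typing errors is unknown, and the arrays cannot be taken as all independent. Of the choroid plexus epithelium markers, 17 of 18 tested were higher in saline choroid plexus than in saline blood and all 6 erythroid markers tested were lower. Choroid plexus AMPH 1 day replicate 2 stood apart: 10.4% of 8730 genes measured on all 20 pools lay at least 4-fold from the mean of the other 3 pools of its group. The share was 0.275% to 4.32% in the other 19 pools. Choroid plexus EIH 1 day replicate 1 (1.96%) did not stand apart by this measure, and was singled out after its IGF values were seen. Values without it therefore leave out a pool chosen on the outcome, and serve as a description of how far they rest on it. All values are log2 intensities. A difference stands with its standard error by limma, for 4 arrays against 4 where no n is given, and its p is Benjamini-Hochberg adjusted over all genes of a comparison. Such a p covers only how these pools or blood samples varied.

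**Figure D1:**
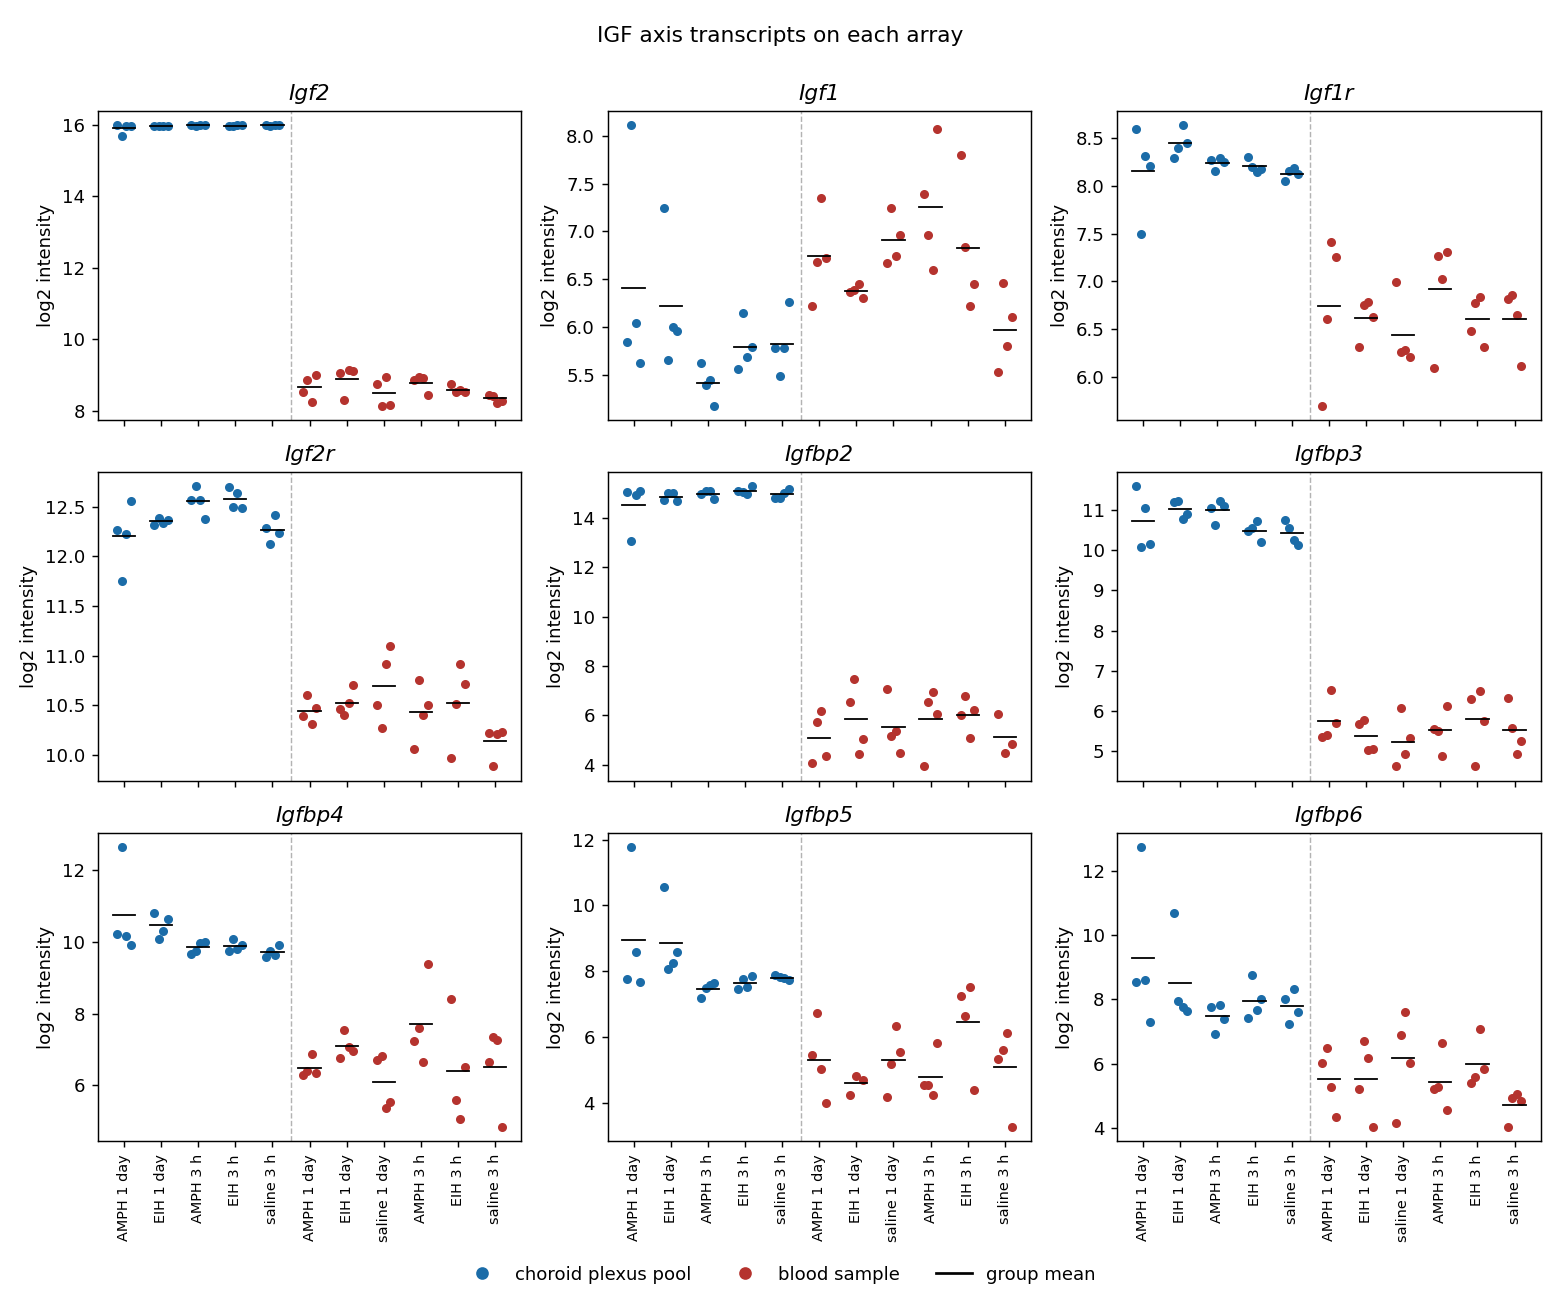
Log2 intensity (y axes) of the 9 IGF axis genes on each array, by group (x axes), with choroid plexus left of the dashed line, blood right of it, and black bars for group means. Igf2 and Igfbp2 lie near the top of the scale in choroid plexus, Igf1 lies in the same range in both tissues, and a single AMPH 1 day pool sets itself apart for Igf1, Igfbp2, Igfbp4, Igfbp5 and Igfbp6.

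Unexposed tissue was profiled by the study to learn how the choroid plexus might make and regulate cerebrospinal fluid. Under saline at 3 h, 8 of the 9 genes were higher in choroid plexus than in blood, and Igf1 did not pass the test. Of all 9925 genes tested, 31.9% were higher in choroid plexus and 56.2% differed in either direction, and the median difference was 3.09 over the 9 genes against 0.15 over all genes. The ligands and binding proteins were chosen as ones the choroid plexus can secrete, and all 9 genes with earlier results known. A share above that of all genes was therefore partly built into the choice. Groups did not overlap, with choroid plexus above, for 7 of the 8 genes with no blank cell, against 33.9% of all such genes. Array values do not compare one gene with another, so each level is set only against the same probe in other samples. In both tissues, fewer cells of a type and less RNA per cell cannot be told apart.

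Igf2, the ligand, read 15.98, 15.97, 15.997 and 15.99 in the saline choroid plexus pools, against 8.46, 8.42, 8.23 and 8.28 in saline blood. The groups lay far apart. The difference was 7.64 ± 0.12 (adjusted p = 5.57e-08), and it is a lower bound, at least 199.5-fold. On 19 of the 20 choroid plexus pools Igf2 shared its exact value with 15 to 32 other genes and 0 genes lay above it, so the probe was at the top of the scale there. The small spread of the saline pools is that of this limit. The standard error and p therefore do not measure how Igf2 transcripts varied in choroid plexus. A change of Igf2 upward could not have been seen in choroid plexus.

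Igf1 read 5.78, 5.49, 5.78 and 6.26 in saline choroid plexus and 5.53, 6.46, 5.81 and 6.10 in saline blood. The samples of both tissues lay among each other. The difference was -0.15 ± 0.25 (95% interval -0.72 to 0.43, adjusted p = 0.652). It is unknown whether these dim readings exceed background in either tissue, so like readings do not show like transcript levels.

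Of the receptors, Igf2r read 12.29, 12.12, 12.42 and 12.24 in choroid plexus against 10.22, 9.88, 10.21 and 10.23 in blood. All 4 pools lay above all 4 blood samples, and the difference was 2.13 ± 0.14, or 4.38-fold (adjusted p = 5.63e-06). Igf1r read 8.05, 8.16, 8.19 and 8.13 in choroid plexus against 6.81, 6.86, 6.64 and 6.11 in blood. These groups did not overlap either, and the difference of 1.53 ± 0.19 (2.88-fold, adjusted p = 0.00019) was the least among the 8 genes that passed.

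Igfbp2 read 14.81, 14.81, 15.03 and 15.18 in saline choroid plexus, against 6.05, 4.46 and 4.82 in saline blood, where the 4th sample was blank. The difference was 9.85 ± 0.38, or 922.2-fold (adjusted p = 1.37e-06; n = 4 and 3). That fold is a ratio of readings and not an exact ratio of transcripts, since it is unknown whether dim blood values exceed background, and the same holds for the other binding proteins. Igfbp3, the main carrier of IGFs in plasma, averaged 10.43 ± 0.28 in choroid plexus against 5.51 ± 0.60 in blood (SD), a difference of 4.92 ± 0.31 (adjusted p = 4.86e-06). Igfbp6, which binds Igf2 in preference to Igf1, averaged 7.80 ± 0.48 in choroid plexus and 4.70 ± 0.47 in blood (SD), a difference of 3.09 ± 0.31 (adjusted p = 6.45e-05). Igfbp5, a binding protein that also attaches to extracellular matrix, averaged 7.80 ± 0.06 in choroid plexus against 5.07 ± 1.26 in blood (SD). Its difference was 2.73 ± 0.57 (adjusted p = 0.00375), and 1.57 by its second, dimmer probe (adjusted p = 0.00421; n = 4 and 2).

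Igfbp4, an inhibitory binding protein that the protease encoded by Pappa cleaves, averaged 9.72 ± 0.15 in choroid plexus against 6.52 ± 1.18 in blood (SD). The difference by the brighter probe was 3.19 ± 0.53 (adjusted p = 0.00115). The second Igfbp4 probe gave 0.42 (adjusted p = 0.554), so the 2 probes disagree and the call rests on the brighter one. In the same comparison 12 of 16 stroma and meninges markers tested were higher in choroid plexus (median 3.62), beside 17 of 18 epithelium markers (median 7.05). The part of each cell type in the binding protein levels was not tested.

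**Figure D2:**
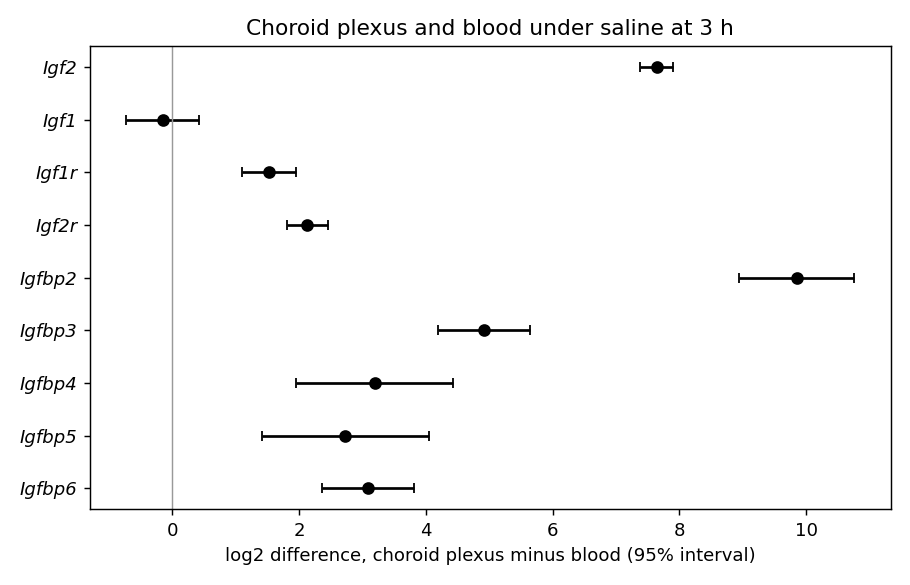
Log2 difference between saline choroid plexus and saline blood at 3 h (x axis, choroid plexus minus blood) for each IGF axis gene, with bars for the 95% interval and 4 arrays against 4 (4 against 3 for Igfbp2). All genes but Igf1 lie right of 0, and the value of Igf2 is a lower bound because its choroid plexus readings were at the top of the scale.

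Of 86 genes listed for the wider IGF and insulin pathway, chosen with earlier results of these data known, 68 were tested between the tissues, and 21 were higher and 20 lower in choroid plexus. These are 30.9% higher, against 31.9% of all genes, and 60.3% in either direction, against 56.2%, so the list's share was near that of all genes. Their median difference was -0.11, against 0.15 over all genes. Cdkn1c, an imprinted cell cycle inhibitor, was higher by 7.59 ± 0.21, and Mmp2, a matrix protease able to cleave binding proteins, by 7.47 ± 0.15. Stc1, an inhibitor of the Pappa protease, was higher by 4.11 ± 0.30 (n = 4 and 2), and Htra1, a secreted serine protease, by 3.95 ± 0.62 (n = 4 and 2). All 4 had adjusted p at or below 0.00232. The binding protein Igfbp1, a fasting-responsive gene of the liver, went the other way with -2.98 ± 0.41 (adjusted p = 0.000364), reading 6.70, 6.81, 7.22 and 6.63 in choroid plexus against 8.57, 10.13, 10.15 and 10.43 in blood.

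The exposures were meant to show damage and protective responses of the choroid plexus. At 3 h after EIH, 0 of the 9 IGF genes passed the test against saline, where 0.341% of 10261 genes did, 1 of the 9 had an unadjusted p under 0.05 against 12.9% of all genes, and array weights in limma called 1. At 3 h after AMPH, 0 of 9 passed, against 0.156% of 10263 genes, 0 had an unadjusted p under 0.05 against 15% of all genes, and array weights called 1. The median difference over the 9 genes was 0.08 after EIH and 0.03 after AMPH (0.02 and 0.03 over all genes). In the levels within choroid plexus at 3 h, neighbouring groups overlapped for each of the 9 genes.

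Igf2r read 12.70, 12.50, 12.64 and 12.48 after EIH and 12.57, 12.71, 12.56 and 12.38 after AMPH, against 12.29, 12.12, 12.42 and 12.24 under saline. All 4 EIH pools lay above all 4 saline pools, as did 8.65% of all genes in that comparison, while 1 AMPH pool lay below the highest saline pool. The difference was 0.31 ± 0.14 after EIH and 0.29 ± 0.14 after AMPH (adjusted p = 0.358 for both), 1.24-fold and 1.22-fold. With array weights in limma, Igf2r passed in both comparisons (0.30, adjusted p = 0.0317 after EIH, and 0.32, adjusted p = 0.0292 after AMPH), and it did not pass under the other 18 settings of each. Both comparisons share the saline pools.

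Igfbp3 read 11.06, 10.63, 11.23 and 11.10 after AMPH, against 10.76, 10.55, 10.27 and 10.13 under saline, a difference of 0.58 ± 0.27 (adjusted p = 0.334). The highest saline pool lay above the lowest AMPH pool. After EIH its difference from saline was 0.07 ± 0.27. Igfbp5 read 7.17, 7.48, 7.57 and 7.64 after AMPH, against 7.87, 7.81, 7.80 and 7.72 under saline. The AMPH pools lay below all saline pools, as did 5.77% of all genes, and the difference of -0.34 ± 0.68 did not pass (adjusted p = 0.876). Igf1 differed by -0.42 ± 0.43 after AMPH and -0.03 ± 0.43 after EIH. Igfbp2 differed by 0.03 ± 0.32 after AMPH and 0.14 ± 0.32 after EIH, with 95% intervals of -0.64 to 0.69 and -0.53 to 0.81. AMPH and EIH at 3 h were also set against each other, and 0 of the 9 genes passed by limma (0.00973% of 10273 genes did), 0 had an unadjusted p under 0.05 (2.83% of genes did), and array weights called 0.

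The standard errors at 3 h are wide for Igfbp4, Igfbp5 and Igfbp6 because all 20 pools share a spread that includes both pools named above. Without AMPH 1 day replicate 2 the standard error of Igfbp5 after AMPH was 0.39, against 0.68 with it, and that of Igfbp6 was 0.56, against 0.87. Without both pools they were 0.18 and 0.34. By limma 0 of the 9 genes passed in either 3 h comparison without replicate 2, with 1.67% of all genes called after EIH and 3.41% after AMPH, and 0 passed without both pools. Igf2r without replicate 2 had adjusted p = 0.105 after EIH and 0.107 after AMPH. The unadjusted results also depended on the spread. Without both pools, limma gave unadjusted p of 0.0275 for Igf1, 0.0128 for Igf2r and 0.0371 for Igfbp3 after AMPH. After EIH it gave 0.00771 for Igf2r. The share of all genes at an unadjusted p under 0.05 is not given for that fit, which leaves out a pool chosen on the outcome.

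In the wider list, chosen with earlier results of these data known, 1 of 70 genes tested passed at 3 h, Plagl1 after both exposures. That is 1.43% of the list, against 0.341% of all genes after EIH and 0.156% after AMPH. Plagl1 is an imprinted zinc finger factor known from mouse work to regulate Igf2 and other imprinted genes. It read 8.32, 8.47, 8.13 and 8.52 after EIH and 8.29, 8.75, 8.62 and 7.49 after AMPH, against 6.76, 6.62, 7.22 and 6.59 under saline. All EIH pools lay above all saline pools, as did 8.65% of all genes in that comparison. The difference was 1.57 ± 0.25 after EIH (adjusted p = 0.0214) and 1.49 ± 0.25 after AMPH (adjusted p = 0.0359), with the saline pools shared by both comparisons. Igf2 itself stood at the top of the scale in these pools.

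**Figure D3:**
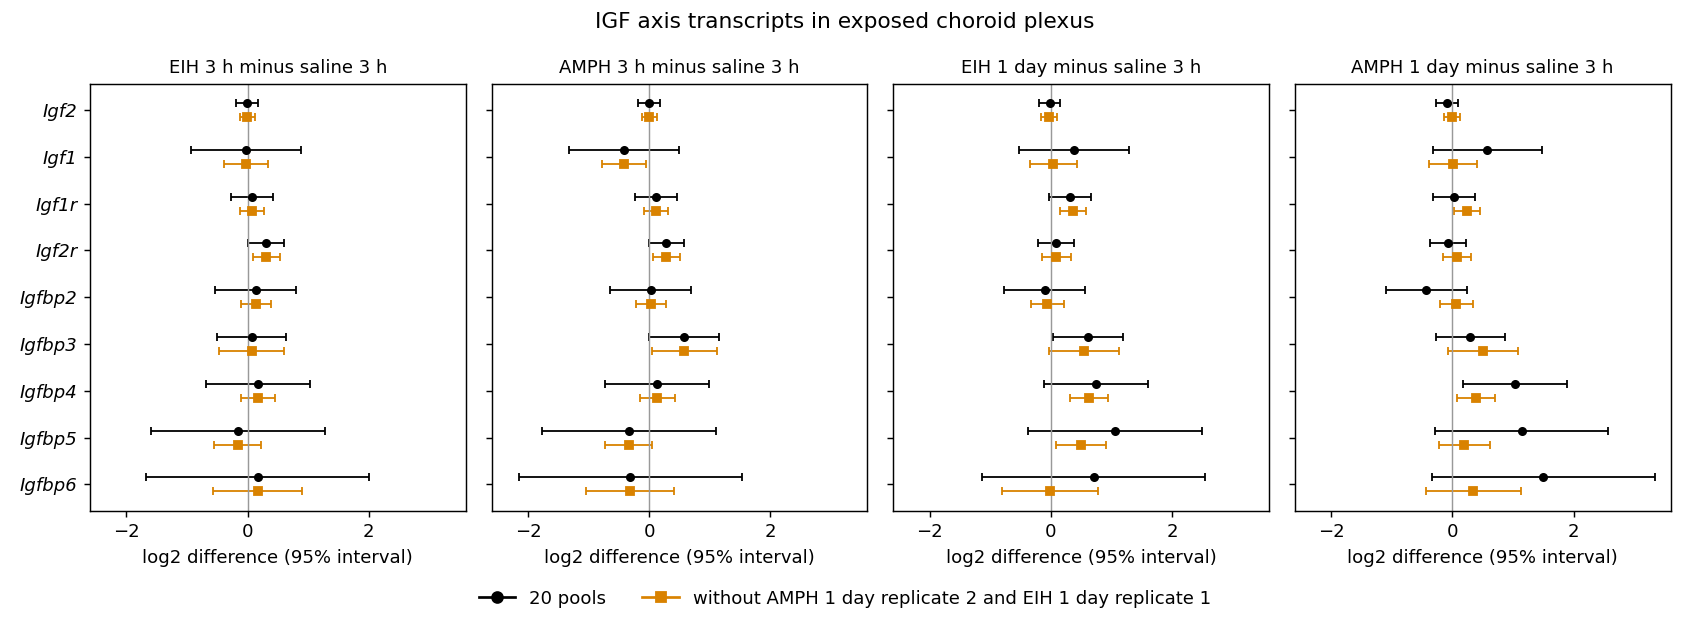
Log2 difference from saline at 3 h (x axes) for each IGF axis gene in choroid plexus after EIH and AMPH at 3 h and at 1 day, with 95% intervals, from all 20 pools (black) and without AMPH 1 day replicate 2 and EIH 1 day replicate 1 (orange). No gene passed the adjusted test in any panel. The orange intervals are narrower for each gene, except for Igfbp3 at 1 day, where they are about as wide. They narrow most for Igf1, Igfbp2, Igfbp4, Igfbp5 and Igfbp6.

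At 1 day, 0 of the 9 genes passed by limma against saline at 3 h in either exposure, and 1 of the 9 had an unadjusted p under 0.05 in each. Of all genes, 0 passed after EIH, with 12.3% at an unadjusted p under 0.05, and 0.0294% passed after AMPH, with 16.9% unadjusted. Array weights called 2 of the 9 after EIH and 0 after AMPH. All genes had moved by a median of 0.17 after EIH and 0.11 after AMPH in these comparisons across times. The median of the 9 genes was 0.39 after EIH, which is the value of Igf1, and 0.30 after AMPH. It was 0.10 without EIH 1 day replicate 1 (0.19 over all genes), and 0.20 without AMPH 1 day replicate 2 (0.14 over all genes).

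After EIH at 1 day, Igf1r, Igfbp3, Igfbp4 and Igfbp5 had all 4 pools above all saline pools, as did 12.2% of all genes. Replicates 2, 3 and 4 share rat numbers by the labels, so the 4 pools cannot be taken as independent. Igf1r read 8.30, 8.40, 8.64 and 8.46 after EIH at 1 day, against 8.05, 8.16, 8.19 and 8.13 under saline at 3 h (0.32 ± 0.17, adjusted p = 0.447). Igfbp4 read 10.82, 10.09, 10.30 and 10.66, against 9.57, 9.76, 9.63 and 9.91 under saline (0.75 ± 0.41, adjusted p = 0.467). These 2 genes were the ones that array weights called (Igf1r 0.37, adjusted p = 0.044, and Igfbp4 0.67, adjusted p = 0.0395). After AMPH at 1 day Igfbp4 read 10.23, 12.66, 10.17 and 9.92, all above the saline pools (1.03 ± 0.41, adjusted p = 0.233), as were 6.44% of all genes. Without AMPH 1 day replicate 2, the Igfbp4 difference was 0.75 ± 0.15 after EIH (adjusted p = 0.0559) and 0.40 ± 0.16 after AMPH (adjusted p = 0.252; n = 3 and 4). These Igfbp4 values rest on its brighter probe. By limma with all pools, the second probe gave -0.15 after EIH (adjusted p = 0.903) and 0.39 after AMPH (adjusted p = 0.628).

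Several EIH values at 1 day rested on replicate 1. The difference of Igfbp5 was 1.06 ± 0.68 with all pools and 0.50 ± 0.20 without both named pools. That of Igfbp6 was 0.71 ± 0.87 and -0.02 ± 0.37, and that of Igf1 0.39 ± 0.43 and 0.04 ± 0.18. Igfbp4 by its brighter probe was less moved, with 0.75 ± 0.41 and 0.63 ± 0.15, and so was Igfbp3, with 0.61 ± 0.27 and 0.55 ± 0.27. None of the 9 genes passed in either fit.

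Igfbp6 after AMPH at 1 day depended on replicate 2. It read 8.55, 12.75, 8.60 and 7.29 after AMPH, against 8.02, 7.24, 8.32 and 7.60 under saline, and its difference was 1.498 ± 0.872 with all pools and 0.35 ± 0.60 without that pool. The difference of Igfbp5 was 1.15 ± 0.68 with all pools and 0.20 ± 0.42 without it, and that of Igf1 0.58 ± 0.43 and 0.01 ± 0.29. The difference of Igfbp2 was -0.43 ± 0.32 with all pools and 0.06 ± 0.13 without it, and none of these values passed. AMPH and EIH at 1 day, set against each other, gave 0 of 9 calls by limma and 0 among all genes, with 0 of the 9 and 5.45% of all genes at an unadjusted p under 0.05 and 0 of the 9 called with array weights.

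In the pool AMPH 1 day replicate 2 the IGF genes lay on both sides of the other pools. Against the mean of the other 3 pools of its group, Igfbp6 lay 4.60 higher, Igfbp5 3.78, Igfbp4 2.55 and Igf1 2.28. The other 5 genes lay below, Igfbp2 by -1.96, Igf1r by -0.87, Igfbp3 by -0.86 and Igf2r by -0.60. Igf2 lay at -0.27, which is only the least it can have been lower, since the other 3 pools read it at the top of the scale. In the same pool 18 of 20 choroid plexus epithelium markers lay more than 1 below the other pools (median -2.88), as did all 4 ependyma markers measured (median -2.38). Of 17 stroma and meninges markers 13 lay more than 1 above (median 2.12), and the medians were 1.96 for 7 mural, 2.15 for 10 macrophage and 2.68 for 6 erythroid markers. The summed intensity of the 20 epithelium markers was 135373 in this pool, against 341098 to 358005 in the other 3 pools of its group. That of the stroma and meninges markers was 386114, against 135776 to 166190. The part of these cell types in the IGF values was not tested.

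EIH 1 day replicate 1 was singled out for its IGF values, so its high values are not a second case of the AMPH 1 day replicate 2 pattern. Igfbp6 lay 2.92 above the mean of the other 3 EIH pools, Igfbp5 2.25, Igf1 1.38 and Igfbp4 0.47. Igfbp2 lay at -0.18, Igf1r at -0.205, Igf2r at -0.045 and Igf2 at 0.01. Igfbp3 lay at 0.22, whereas it lay below the other pools in AMPH 1 day replicate 2. The stroma and meninges markers had a median of 0.82 there, with 8 of 17 more than 1 higher, and the epithelium markers a median of -0.24 with 0 of 20 more than 1 away. Their summed intensity was 295841 for stroma and meninges, against 129911 to 144445 in the other 3 pools, and 332111 for epithelium, against 360829 to 373269. The share of this pool in the result was not tested beyond leaving it out.

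**Figure D4:**
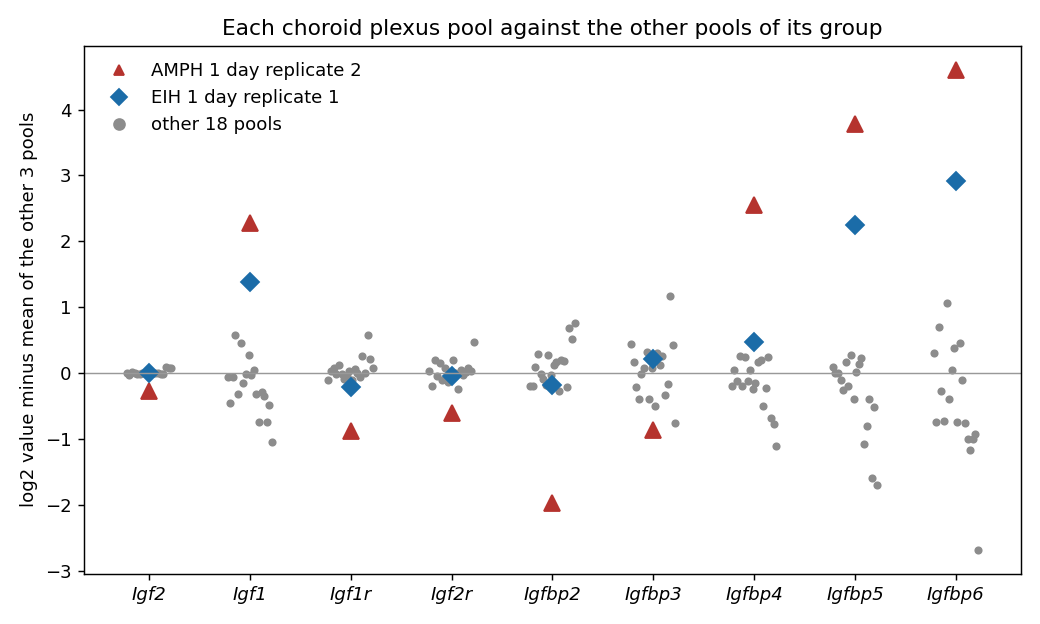
For each choroid plexus pool, the log2 value of an IGF axis gene minus the mean of the other 3 pools of its group (y axis). AMPH 1 day replicate 2 (red triangles) lies at 4.60 for Igfbp6 and at -1.96 for Igfbp2, EIH 1 day replicate 1 (blue diamonds) lies above for Igf1, Igfbp5 and Igfbp6, and the other 18 pools are grey.

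The 150 bases before the annotated start of the 4 binding protein genes with the widest excursions in that pool are printed here, so that the gene with the low value (Igfbp2) can be read beside those with high values. They come from RefSeq (GRCr8), where all 9 genes matched with 10 starts, 2 of them for Igf2. Igfbp2 and Igfbp5 are adjacent genes on chromosome 9, on opposite strands, and yet departed in opposite directions. Capitals mark a TATA box (TATAAA) or a GC box (GGGCGG), searched on both strands.
Igfbp2, chr9:81864661-81864810, plus strand: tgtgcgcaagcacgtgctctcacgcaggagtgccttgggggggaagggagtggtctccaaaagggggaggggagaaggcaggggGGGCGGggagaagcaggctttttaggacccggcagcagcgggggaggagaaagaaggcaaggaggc
Igfbp4, chr10:84491321-84491470, plus strand: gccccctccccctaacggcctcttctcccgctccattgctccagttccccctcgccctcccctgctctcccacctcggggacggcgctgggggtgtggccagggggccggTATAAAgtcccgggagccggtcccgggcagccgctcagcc
Igfbp5, chr9:81914188-81914337, minus strand: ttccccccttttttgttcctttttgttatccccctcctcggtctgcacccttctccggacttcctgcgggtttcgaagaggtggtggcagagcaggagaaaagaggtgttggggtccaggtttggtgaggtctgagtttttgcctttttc
Igfbp6, chr7:135154769-135154918, plus strand: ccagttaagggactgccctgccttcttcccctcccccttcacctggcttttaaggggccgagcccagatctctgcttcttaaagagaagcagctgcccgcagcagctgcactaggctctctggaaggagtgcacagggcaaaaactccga

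The GC box letters were in 3 of the 10 windows of the 9 genes (Igfbp2, Igf2r and 1 start of Igf2), against 26% of the 33469 windows of this length over all genes. The TATA box letters were in 1, that of Igfbp4, against 8% of all windows. The letters TAATCC, a core bound by OTX factors such as the choroid plexus factor OTX2, were in 0 of the 10, against 3.58% of all windows. These matches describe the letters only. The G and C content of the printed windows was 65.3% for Igfbp2, 73.3% for Igfbp4, 52.7% for Igfbp5 and 58% for Igfbp6.

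Genes whose deviations from the group means ran most like those of each IGF gene over the 20 choroid plexus pools were named by the 3 highest Pearson r, without a test. For Igfbp6 they were S100a10 (0.98), Vim (0.98) and Col1a1 (0.98), the last a fibrillar collagen gene and a marker of the stroma list. For Igfbp5 they were Pdgfrl (0.99), Col16a1 (0.98) and Prrx2 (0.98), and for Igf1 Alx1 (0.96), Prrx2 (0.96) and Plekha4 (0.95). For Igfbp4 they were Tns2 (0.96), Rpl22 (0.95) and Gpx7 (0.95). For Igfbp2 they were the channel gene Trpv4 (0.98), Pcyt2 (0.98) and Gaa (0.98). Most of these values lean on these 2 pools: over the other 18 pools r was 0.87 for Igfbp6 with Vim, 0.85 with Col1a1, 0.78 for Igfbp2 with Trpv4 and 0.47 for Igfbp4 with Rpl22.

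For the receptors and Igfbp3 the lists were Sod3 (0.96), Csnk1g2 (0.96) and Plxnb2 (0.95) for Igf1r, Exoc2 (0.94), Habp4 (0.90) and Maged1 (0.90) for Igf2r, and Sh3glb2 (0.83), Kcnn4 (0.83) and Tars2 (0.82) for Igfbp3. Of these, Sh3glb2 with Igfbp3 kept r at 0.93 and Exoc2 with Igf2r at 0.84 over the other 18 pools. The genes most like Igf2 (Atp5me, Ctsd and Enpp2, each about 1) were at the top of the scale with it, so the likeness describes that limit.

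In blood, 1 of the 9 genes passed after an exposure, and it was Igf1 at 3 h after AMPH. It read 7.39, 6.97, 6.59 and 8.07 after AMPH, against 5.53, 6.46, 5.81 and 6.10 under saline at 3 h. That saline group had the lowest Igf1 mean of the blood groups (5.97). Saline blood of 1 day read 6.67, 7.25, 6.75 and 6.96, inside the range of AMPH at 3 h. The 2 times appear to have been scaled separately. All AMPH samples of 3 h lay above all saline samples of 3 h, as did 11.8% of all genes. Igf1 was higher by 1.28 ± 0.33, or 2.43-fold (adjusted p = 0.0206). In that comparison 5.08% of 9863 genes were higher and 8.68% passed in either direction. The call was lost when only the 2 compared groups were fitted (adjusted p = 0.0698), without saline replicate 1 (1.14, adjusted p = 0.0735), without saline replicate 3 (1.23, adjusted p = 0.0567) and without AMPH replicate 4 (1.01, adjusted p = 0.0849). It held under the other 11 of 15 settings, and adjusted p ranged between 0.00877 and 0.0849.

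Liver markers also read high in these AMPH samples. The 7 liver markers measured on all blood arrays averaged 9.27, 10.09, 7.93 and 12.18 after AMPH at 3 h, against 6.04, 7.62, 6.55 and 6.66 under saline, and their summed intensity ran from 12166 to 44947 after AMPH and from 3275 to 6089 under saline. The AMPH sample with the highest Igf1 (replicate 4) had the highest liver mean, and the one with the lowest Igf1 (replicate 3) had the lowest. Replicates 1 and 2 went the other way, with Igf1 at 7.39 and 6.97 and liver means of 9.27 and 10.09. Over all 24 blood samples, Pearson r of Igf1 with the liver mean was 0.83, and 0.82 for deviations from the group means. Of 13 liver markers tested in that comparison 2 were higher and 0 lower, with a median of 3.42 against 0.01 over all genes. Albumin (Alb) read 12.26, 12.91, 9.77 and 15.07 after AMPH, against 10.24, 6.89, 3.80 and a blank under saline. The part of liver RNA in the Igf1 value was not tested. T cell markers (6 of 6 tested lower, median -2.09) and neutrophil markers (3 of 7 higher, median 1.52) differed too.

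**Figure D5:**
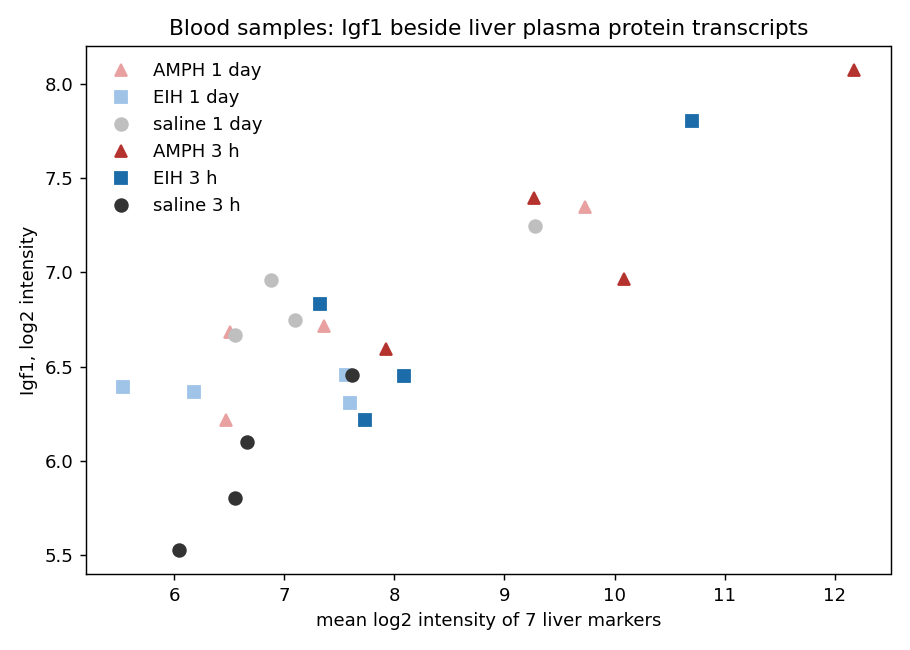
Igf1 in each of the 24 blood samples (y axis, log2 intensity) beside the mean of 7 liver marker genes (x axis, log2 intensity), by group. The AMPH sample of 3 h with the highest Igf1 (8.07) has the highest liver mean (12.18), the EIH sample next to it reads 7.80 and 10.71, and the saline samples of 3 h lie at 5.53 to 6.46 and 6.04 to 7.62.

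After EIH at 3 h blood Igf1 read 7.80, 6.83, 6.22 and 6.45, against 5.53, 6.46, 5.81 and 6.10 under saline (0.85 ± 0.33, adjusted p = 0.105), and the groups overlapped. By limma 0 of the 9 genes passed in that comparison, against 12.6% of 9893 genes, 1 had an unadjusted p under 0.05 against 25.6% of all genes, and array weights called 0. Igf2 read 8.74, 8.51, 8.58 and 8.53 after EIH, all above the saline samples at 8.46, 8.42, 8.23 and 8.28 (0.25 ± 0.23, adjusted p = 0.555). Igfbp6 read 5.38, 5.59, 7.09 and 5.83 after EIH, all above saline at 4.02, 4.92, 5.06 and 4.82 (1.27 ± 0.68, adjusted p = 0.252). Such a gap upward was found for 12.7% of all genes. At 3 h, neighbouring groups in the order of blood levels overlapped for all 9 genes except Igf2 between EIH and saline.

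The Igf1 difference after AMPH at 3 h in blood was set against the choroid plexus in 1 fit over all 44 arrays. The AMPH difference was -0.42 in choroid plexus and 1.28 in blood, and their difference was -1.70 ± 0.55 (95% interval -2.81 to -0.59). It did not pass (adjusted p = 0.0747), in a comparison where 3.15% of 9788 genes did. Leaving out AMPH 1 day replicate 2, which enters only the shared spread, gave adjusted p = 0.0195 and leaving out EIH 1 day replicate 1 as well gave 0.01, array weights gave 0.0157 and fitting only the compared groups 0.0281. Over 27 settings adjusted p ranged between 0.01 and 0.176, with 5 below 0.05. For EIH at 3 h the tissues differed in Igf1 by -0.88 ± 0.55 (adjusted p = 0.384), and 0 of the 9 genes passed by limma, against 6.13% of genes, with 0 at an unadjusted p under 0.05 and 0 called with array weights.

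At 1 day in blood, 0 of the 9 genes passed by limma after EIH, against 0.082% of 9762 genes, or after AMPH, against 2.08% of 9797 genes. In both comparisons 0 of the 9 had an unadjusted p under 0.05, against 10.3% and 17.9% of all genes, and array weights called 0. Igf1 read 6.37, 6.39, 6.45 and 6.31 after EIH at 1 day, all below saline at 6.67, 7.25, 6.75 and 6.96 (-0.53 ± 0.33, adjusted p = 0.595), as were 2.98% of all genes. The liver mean ran from 5.53 to 7.60 after EIH and from 6.55 to 9.27 under saline at 1 day. Igf1 after AMPH at 1 day read 6.22, 6.68, 7.35 and 6.72 and overlapped saline. Igfbp4 after EIH at 1 day read 6.77, 7.53, 7.07 and 6.96, against 6.70, 6.81, 5.36 and 5.54 under saline (0.98 ± 0.66, adjusted p = 0.615), with overlapping groups. The second Igfbp4 probe went the other way there, with -1.35 (adjusted p = 0.592 by limma).

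The other 5 genes varied in blood within wide limits. Igfbp2 lay between 3.93 and 7.46, with 1 saline 3 h sample blank, and Igfbp3 between 4.60 and 6.51 over the blood samples. Igfbp5 ran from 3.25 to 7.51, with 1 EIH 1 day sample blank. The receptors were steadier, with Igf2r between 9.88 and 11.10 and Igf1r between 5.70 and 7.41. The standard errors of Igfbp2, Igfbp4, Igfbp5 and Igfbp6 in the 3 h comparisons of blood were 0.66 to 0.81, against 0.33 for Igf1.

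In blood at 3 h, 6 of 67 genes tested from the wider list were higher and 3 lower after EIH, and 3 of 68 were higher and 1 lower after AMPH, with shared saline samples. The share called was 13.4% after EIH, near the 12.6% of all genes, and 5.88% after AMPH, below the 8.68% of all genes. White blood cell markers differed in the same EIH comparison, with T cells lower in 6 of 6 tested (median -2.28), B cells lower in 2 of 2, and 4 of 7 neutrophil and 4 of 11 macrophage markers higher. Their part in the values that follow, and that of the AMPH shifts given above, was not tested. Sesn1, an inhibitor of mTOR signalling that Foxo factors and p53 induce, was lower by -2.21 ± 0.27 after EIH and -1.78 ± 0.27 after AMPH (adjusted p = 8.83e-05 and 0.00108). It read 8.22, 7.30, 7.86 and 7.69 after EIH and 7.53, 8.19, 8.76 and 8.32 after AMPH, against 10.11, 10.09, 9.96 and 9.75 under saline. The choroid plexus minus blood difference of that response was 2.24 ± 0.33 for EIH (adjusted p = 8.72e-05) and 1.91 ± 0.33 for AMPH (adjusted p = 0.00131). Trib3, a pseudokinase that binds Akt, was higher by 2.02 ± 0.43 after EIH and 1.90 ± 0.43 after AMPH. Socs3, an inhibitor of cytokine signalling, was higher by 2.25 ± 0.61 after EIH, and the protease inhibitor gene Timp1 by 1.28 ± 0.31 after EIH and 1.44 ± 0.31 after AMPH. Eif4ebp1, a translation repressor that mTOR inactivates, was higher by 0.53 ± 0.16 after AMPH (adjusted p = 0.0438). At 1 day after AMPH 3 of 66 (4.55%, against 2.08% of all genes) were higher and 0 lower: Itgb3 by 2.21 ± 0.54, Lrp1 by 1.96 ± 0.37 and Itgav by 1.39 ± 0.36. Itgb3 is also on the platelet marker list, whose median was -0.04. In that comparison 2 of 11 macrophage markers (median 0.83) and 1 of 7 neutrophil markers (median 1.11) were higher. T cell markers had a median of -0.91, with 0 of 7 called. The part of these cells in the 3 values was not tested.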

How the data were processed

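What the authors deposited are linear intensity values for 14055 probes on 44 arrays, and 0 columns came from outside the series. Per the labels' protocols, Tri Reagent RNA went into the Agilent Quick Amp kit with Cy3 as the dye. The sources used here name no scanner software, background correction or normalization, and the table has no detection flags. It is therefore unknown whether dim values, in blood or in choroid plexus, exceed background. Blank cells (3.05% in choroid plexus, 8.57% in blood) stayed missing, and log2 was taken with a floor of 1, and 0 values lay below it. Quantiles are close within each time and differ between times, as after 2 separate normalizations. The number of arrays limits the precision.

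Symbols of 12926 probes were updated through RefSeq (accession 11472, current 1372, synonym 78, kept 4), 1129 probes had none and 0 had several. Of 10412 genes 2210 had several probes, and the brightest stood for the gene. Genes were fitted with limma 3.58.1 in R 4.3.3 using 1 mean for each group, over 20 choroid plexus, 24 blood, 8 saline or 44 arrays. A gene needed at least 2 values in each compared group and was called where its adjusted p (Benjamini-Hochberg) was below 0.05. Standard errors carry a spread shared by all groups of the fit. The step was tested on simulated data. Python 3.11.15 with pandas 2.3.3 and matplotlib 3.10.9 drew the figures.

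The members, the marker lists and the wider list were chosen with earlier results of these data known. By rule, the 9 members were to be named in each comparison. So were at most 4 called genes of largest size from the wider list (71 of 86 measured) and the 3 genes most alike each member. In most comparisons, values are printed for only some of the 9 members. Igfbp1, Plagl1, Alb and values beyond that rule were singled out after seeing them. Replicates were numbered in accession order. Alternatives were quantile or median normalization, leaving out the 25% dimmest genes, an intensity trend with robust spread, array weights, only the compared groups, other probes, leaving out each array, leaving out pools with a recurring rat, and arrays of a shared rat as a random block. Leaving out AMPH 1 day replicate 2, which stands apart, and EIH 1 day replicate 1, picked for its IGF values, was added after seeing the data.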

Additional observations from a re-analysis of the deposited data

Results flagged for a closer look

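In 9 of 97 groups of 4 arrays with a value for an IGF gene, 1 array lay far from the other 3 by Dixon's test of the gap over the range at its 95% critical value. Chance alone marks about 1 in 20 groups. In choroid plexus AMPH at 1 day, 4 such values belong to replicate 2: Igf2 read 15.702 and Igfbp2 13.061, both the lowest of the group, and Igf1 read 8.113 and Igfbp4 12.66, both the highest. Igfbp6 read 10.697 in choroid plexus EIH 1 day replicate 1, against 7.63 to 7.94 in the other 3 pools. In blood, Igf2 was lowest at 8.436 in AMPH 3 h replicate 4 (the others 8.86 to 8.94) and at 8.299 in EIH 1 day replicate 2 (the others 9.06 to 9.14). Igf1r was highest at 6.998 in saline 1 day replicate 1 (the others 6.20 to 6.28), and Igf2r lowest at 9.883 in saline 3 h replicate 2 (the others 10.21 to 10.23). The causes were not tested.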

How the results depend on the processing

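The count of 8 genes higher in choroid plexus than in blood was the same under all 16 settings, including arrays of a shared rat as a random block (correlation 0.083). The 8 genes of that comparison and Igf1 after AMPH in blood gave 145 values under alternatives, all in the reported direction, and 140 still passed; the exceptions were Igfbp4 by its second probe (0.42) and 4 settings of blood Igf1. Array weights raised the count of calls to 1 in choroid plexus after EIH and after AMPH at 3 h, to 2 after EIH at 1 day, and to 1 for the tissue difference after AMPH. The count for blood after AMPH at 3 h was 0 when only the compared groups were fitted, and 0 to 1 when each array was left out. That of the tissue difference after AMPH was 1 with only the compared groups and 1 without AMPH 1 day replicate 2 and EIH 1 day replicate 1, and 0 to 1 when each array was left out. Leaving out pools that list a recurring rat leaves EIH 1 day with replicate 1 alone, the pool singled out for its IGF values, assumed to vary like the other groups. Without them the count was 4 after EIH at 1 day and 3 for AMPH against EIH at 1 day, and that last difference turned for Igf1 (-1.41), Igfbp5 (-2.55) and Igfbp6 (-2.55), against 0.19, 0.09 and 0.79 with all pools. Of 2023 values that passed neither as reported nor under the alternative, 141 changed sign. No paired analysis was possible by replicate number, because the numbers used here follow accession order. The rat numbers in the labels tie blood samples to pools, and they entered only the random block of the saline comparison. Blanks, the top of the scale for Igf2 and the unknown background of dim readings limit what could be seen.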
